A study of Mus musculus with 12 samples.

Results

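The genes described here encode the RNA polymerase II machinery of the mouse: the subunits of the enzyme, the general transcription factors, TBP and its associated factors, Mediator, and the SUPT elongation and coactivator proteins. Members were chosen by name, as protein-coding RefSeq genes (GRCm38) whose symbols start with Polr2, Gtf2, Supt, or Taf or Med followed by a digit, together with Tbp. The rule found 92 of 21887 protein-coding genes. A gene was said to hold a peak when its body, with 1 kb added on both sides, overlapped an interval in which RNA-DNA hybrids were enriched. The symbol rule takes in some genes whose products act elsewhere, such as Taf1a to Taf1d, which belong to the selectivity factor of RNA polymerase I, and Taf15, which encodes an RNA-binding protein.

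RNA polymerase II transcribes all protein-coding genes. TFIID, made of TBP and the TAF proteins, recognises the promoter; TFIIA, TFIIB, TFIIE, TFIIF and TFIIH complete the initiation complex; Mediator connects it to activators bound at enhancers; and SPT4, SPT5, SPT6 and FACT travel with the polymerase as it elongates. An R-loop forms when the nascent RNA pairs again with its template strand and leaves the other DNA strand single, most often over GC-rich promoters and over transcript ends.

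R-loops were mapped with S9.6, an antibody against RNA-DNA hybrids, in HEPA1-6, a cell line from a mouse hepatoma, and in liver of C57/Bl6 mice; both sources were wild type and untreated, and the age and number of the mice are not given. The labels list 12 libraries in 6 groups of 2: immunoprecipitate, immunoprecipitate with RNase H1 (an enzyme that removes the RNA of a hybrid), and input, for each source. Immunoprecipitates were amplified by 10 PCR cycles and inputs by 4. The data used here are 1 peak list per source. By the peak names, libraries were merged before peaks were called over input, so there are no replicates, no test between the sources, and no depth behind the peaks; the RNase H1 libraries were not analysed here.

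The HEPA1-6 list held 28717 peaks and the other 14908. All 8 proliferation markers held a peak in both lists (Mki67, Top2a and Cdk1 among them). Of 12 hepatocyte markers 3 held one in HEPA1-6 (Alb, Hnf4a and Apob) and 2 in the liver list (Alb and Hnf4a), while Ttr, Apoa1, Cps1, Cyp2e1, Tat, Pck1, Fgb, Serpina1a and Ass1 held none. Of 5 endothelial markers none held a peak; of 5 macrophage markers Cd68 and Csf1r did in both lists, and of 5 stellate cell markers Dcn did. A peak is not a level of RNA, and the part of cell makeup in the results was not tested. The second list is called liver-labelled here after its sample labels.

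Peaks lay at most of the machinery genes in HEPA1-6. Of the 92 members, 69 (75%, 95% Wilson interval 65.3 to 82.7%) held a HEPA1-6 peak, against 42.0% of all protein-coding genes. In the liver-labelled list 41 (44.6%, 34.8 to 54.7%) held a peak, against 29.7%. Both lists had a peak at 40 members (43.5%, background 27.8%), HEPA1-6 alone at 29 (31.5%, background 14.2%) and the liver-labelled list alone at 1, Med30 (background 1.89%). Of the 41 members with a liver-labelled peak, 40 thus held one in HEPA1-6 too (background 93.6%). The remaining 22 members held no peak (23.9%, background 56.1%). Intervals cover counting error over genes only. The background takes in all protein-coding genes, whether or not they are transcribed in these sources. No RNA level was used, so the part of transcription in these shares was not tested. Peaks below the authors' threshold are not listed, and a shorter list leaves more genes empty: with the HEPA1-6 list shortened to its 14908 highest-scoring peaks, 50 members held a HEPA1-6 peak (background 34.0%), 11 held one in HEPA1-6 alone (background 7.99%) and 40 held none (background 62.4%).

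A wide peak can reach a member from its neighbour. Of 201 peaks at members from HEPA1-6, 46 overlapped the body of another gene, and of 82 liver-labelled peaks 18 did. A background was counted over genes whose strand is in the RefSeq promoter table. There, 34 HEPA1-6 peaks at members overlapped another gene and 142 did not, against 5183 and 17758 at all protein-coding genes. The liver-labelled counts were 16 and 52, against 2852 and 7426. With only the peaks that overlap no other gene, 50 members kept a peak in HEPA1-6 (background 31.8%) and 28 in the liver-labelled list (background 21.9%); 24 held one in both lists (background 17.9%) and 38 in neither (background 64.2%). No peak was counted at more than 1 member.

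**Figure D1:**
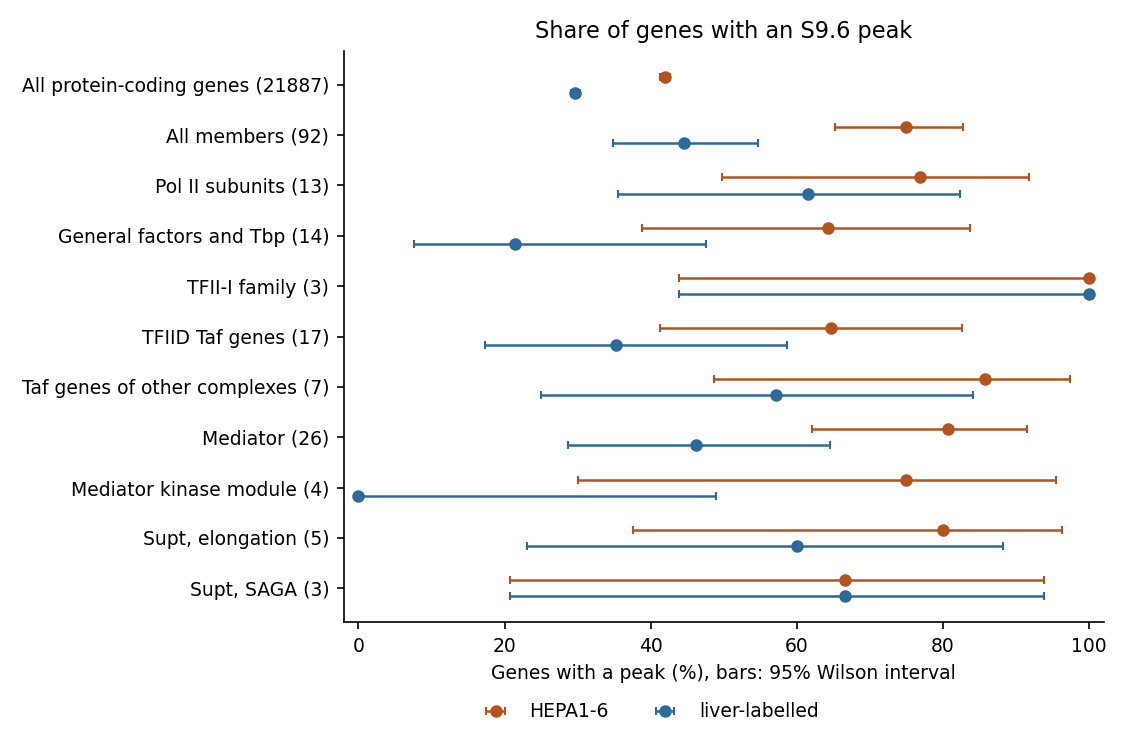
Share of genes with a peak (x axis, percent) for all protein-coding genes, all members and the members by role (y axis, number of genes in brackets), in HEPA1-6 (orange) and the liver-labelled list (blue); bars are 95% Wilson intervals. All members lie at 75% and 44.6%, all protein-coding genes at 42.0% and 29.7%, and the Mediator kinase module at 75% and 0%.

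Gene length was then considered, because a longer gene offers more room for a peak. The members had a median length of 16166 bp, close to the 17169 bp of all protein-coding genes. In the shortest of 5 equal classes of genes (up to 4168 bp), 7 of 10 members held a HEPA1-6 peak, against 20.4% of genes of that length, and 5 of 10 held a liver-labelled peak, against 14.9%. The share of members was higher than that of all genes in each of the 5 classes for HEPA1-6. It was also higher in 4 classes for the liver-labelled list, and in the longest class (57148 bp and more) 4 of 15 members (26.7%, 10.9 to 52.0%) held a peak, against 35.7%. Some intervals of members held the share of all genes. For HEPA1-6 this was so in the longest class (35.7 to 80.2%, against 47.2%). In the liver-labelled list it was so from 4168 to 11661 bp (27.6 to 62.7%, against 30.2%). The same held there from 11662 to 24583 bp (21.9 to 61.3%, against 33.3%) and in the longest class. Long members without a liver-labelled peak include Med12l, Med13l, Taf3, Taf4b and Med27.

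**Figure D2:**
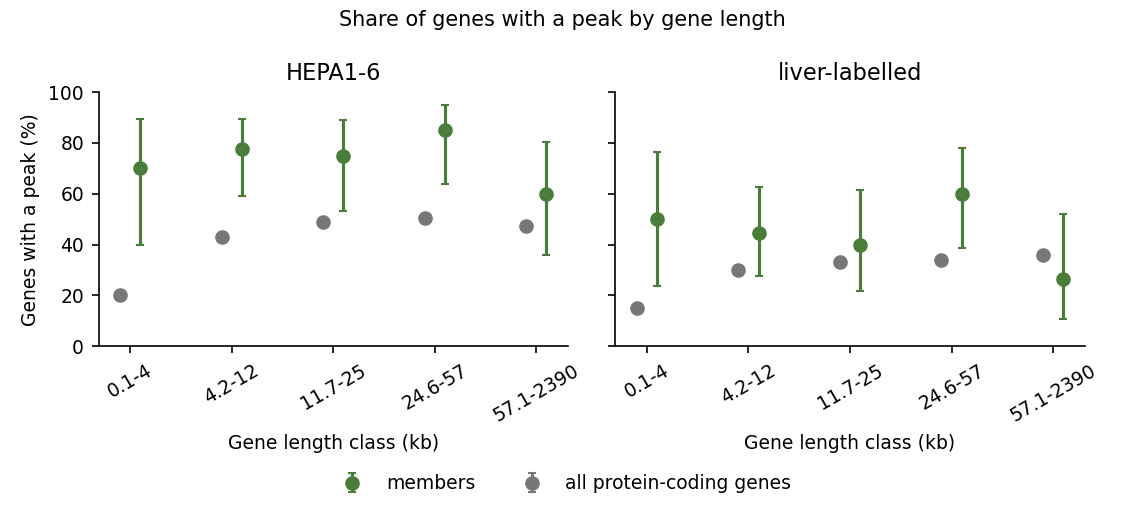
Share of genes with a peak (y axis, percent) in 5 classes of gene length (x axis, kb; equal numbers of all protein-coding genes), for members (green) and all protein-coding genes (grey), in HEPA1-6 (left) and the liver-labelled list (right); bars are 95% Wilson intervals. In the shortest class 70.0% of members and 20.4% of all genes held a HEPA1-6 peak.

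Promoters under a peak are shown to let the base composition be seen beside the peaks. Of the 6 members with the highest-scoring HEPA1-6 peak over the gene start among those with a peak over it in both lists, 4 are shown, each as the 250 bases before the start in the direction of the gene (RefSeq, GRCm38.p6). Capitals mark a match on either strand to the TATA box (TATAAA), to the core of ETS factor sites (CCGGAAG), to the CCAAT box or to the NRF1 motif, which had no match in them.
Med22: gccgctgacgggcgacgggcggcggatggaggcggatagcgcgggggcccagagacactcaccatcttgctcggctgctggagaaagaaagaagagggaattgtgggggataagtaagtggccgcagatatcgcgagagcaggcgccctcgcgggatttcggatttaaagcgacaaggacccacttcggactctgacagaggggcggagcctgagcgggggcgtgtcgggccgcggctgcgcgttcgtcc
Gtf2a1: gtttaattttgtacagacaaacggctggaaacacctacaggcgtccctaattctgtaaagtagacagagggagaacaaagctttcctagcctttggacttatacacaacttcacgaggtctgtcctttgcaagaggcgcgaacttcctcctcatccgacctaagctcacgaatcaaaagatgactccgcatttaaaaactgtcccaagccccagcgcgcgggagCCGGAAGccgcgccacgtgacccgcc
Polr2l: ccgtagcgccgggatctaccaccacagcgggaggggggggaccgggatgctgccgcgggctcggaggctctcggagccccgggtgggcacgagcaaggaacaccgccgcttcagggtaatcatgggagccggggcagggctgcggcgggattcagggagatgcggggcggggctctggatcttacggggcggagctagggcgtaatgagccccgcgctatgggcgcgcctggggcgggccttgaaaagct
Polr2a: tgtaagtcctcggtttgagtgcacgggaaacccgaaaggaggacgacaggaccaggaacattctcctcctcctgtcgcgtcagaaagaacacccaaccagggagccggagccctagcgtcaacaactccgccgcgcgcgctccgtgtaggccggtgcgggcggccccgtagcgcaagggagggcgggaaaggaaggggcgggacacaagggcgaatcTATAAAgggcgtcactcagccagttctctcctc
A pair of members with no peak in either list is shown beside them.
Polr2b: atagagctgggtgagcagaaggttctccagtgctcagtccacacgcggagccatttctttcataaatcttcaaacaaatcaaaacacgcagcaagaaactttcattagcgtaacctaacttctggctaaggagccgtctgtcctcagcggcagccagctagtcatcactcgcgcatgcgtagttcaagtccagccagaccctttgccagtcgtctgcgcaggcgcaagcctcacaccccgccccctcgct
Taf13: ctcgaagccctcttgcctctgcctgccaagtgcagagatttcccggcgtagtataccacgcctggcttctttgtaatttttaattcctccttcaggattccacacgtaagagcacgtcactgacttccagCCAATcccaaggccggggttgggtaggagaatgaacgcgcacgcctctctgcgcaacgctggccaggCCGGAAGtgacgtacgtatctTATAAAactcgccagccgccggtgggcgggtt
The other members of the 6, Taf15 and Taf10, are not shown because their windows reach 35 and 37 bp into the annotated gene. The windows are at chr2:26910643-26910892 (Med22, minus strand), chr12:91590488-91590737 (Gtf2a1, minus), chr7:141475154-141475403 (Polr2l, minus), chr11:69758634-69758883 (Polr2a, minus), chr5:77310234-77310483 (Polr2b, plus) and chr3:108571449-108571698 (Taf13, plus). G and C made up 65.2% of the bases at Med22, 51.6% at Gtf2a1, 71.2% at Polr2l and 62.8% at Polr2a, against 54.0% at Polr2b and 56.4% at Taf13. The CG dinucleotide occurred 16 to 28 times in the first group, 14 times at Polr2b and 19 times at Taf13. Gtf2a1 thus had a peak over its start with fewer G and C bases than either promoter without one. TATAAA was found at Polr2a and at Taf13.

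Over 80 members with a promoter in the RefSeq table, taken as the 250 bases before and 50 after the start, the median GC content was 60.8% (range 39.3 to 84.7%), against 56.3% over 17492 protein-coding genes. CG occurred a median of 24 times, against 13. Promoters with a HEPA1-6 peak within 1 kb of the gene start had a median of 63.7% (28 members), and those without one 57.7% (52 members); over all protein-coding genes the same medians were 62.3% and 53.7%. Members thus followed the order seen over all genes. CCGGAAG lay in 26 of 80 member promoters (32.5%) and in 11.9% of all; TATAAA lay in 10 (12.5%) and 13.3%; CCAAT in 26 (32.5%) and 39.2%; and the NRF1 motif in 1 (1.25%) and 1.33%. These are matches of letters on either strand and none of the motifs spelled out contains another. CCGGAAG lay in 7 of the 28 promoters with a HEPA1-6 peak at the start and in 19 of the 52 without (25% and 36.5%); over all protein-coding genes the shares were 21.1% and 8.95%, in the opposite order. These differences were not tested.

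The subunits of the polymerase held peaks at 10 of 13 genes in HEPA1-6 (76.9%, 49.7 to 91.8%, background 42.0%). Liver-labelled peaks lay at 8 (61.5%, 35.5 to 82.3%, background 29.7%). Polr2a, which encodes the largest subunit with the repeated C-terminal domain, spans chr11:69733997-69758633 on the minus strand. Its promoter lay under a HEPA1-6 peak of 3387 bp (chr11:69755707-69759093), which had the authors' score of 70, at percentile 95.3 of that list; the liver-labelled peak there ended at the same upstream base, was 1587 bp wide (chr11:69757507-69759093) and scored 34, at percentile 79.8. The score has no stated scale and ranks peaks within a list only, where the medians were 21 and 22. Further HEPA1-6 peaks along Polr2a scored 32, 31, 20 and 19, and liver-labelled peaks lay inside the first 2 of these with scores of 21 and 17. The gene was therefore marked at its start in both lists and at its end in HEPA1-6 alone.

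Polr2b, whose product forms the active centre together with that of Polr2a, held no peak in either list, and neither did Polr2d and Polr2g. Polr2g lay 1105 bp from a HEPA1-6 peak with a score of 17 and 3570 bp from a liver-labelled peak with a score of 97, both beyond the 1 kb limit. The 5 subunits shared by all 3 nuclear RNA polymerases (Polr2e, Polr2f, Polr2h, Polr2k and Polr2l) were all marked in HEPA1-6, and 3 of them, all but Polr2e and Polr2h, in the other list too. Among the 8 other subunit genes the counts were 5 and 5. The highest scores among the subunits were those of Polr2l, 84 in HEPA1-6 and 57 among liver-labelled peaks. Its HEPA1-6 peak was 14435 bp wide, far more than the 3294 bp of the gene, lay on the opposite strand, and also overlapped Cd151, Tspan4 and Cracr2b. A liver-labelled peak with a score of 33 lay beyond the end of Polr2l, inside the same HEPA1-6 peak. Polr2c, a core subunit with a single peak in each list, scored 63 and 31. Polr2m, whose product binds the polymerase and limits its response to initiation factors, was nearly covered by 1 HEPA1-6 peak of 7861 bp (score 43), inside which 2 liver-labelled peaks lay (22 and 18).

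The general factors held fewer peaks in the liver-labelled list. With Tbp they number 14 genes, of which 9 (64.3%, 38.8 to 83.7%) were marked in HEPA1-6 and 3 (21.4%, 7.57 to 47.6%) by a liver-labelled peak. The latter share lies below the background of 29.7%, which is within its interval. The HEPA1-6 background of 42.0% also lies within the interval of the HEPA1-6 share. The 3 were Gtf2a1, Gtf2h1 and Gtf2h3. At Gtf2a1, which encodes the large subunits of TFIIA, both lists gave the same interval of 1979 bp over the gene start (chr12:91588681-91590659), scoring 111 in HEPA1-6 and 101 among liver-labelled peaks. This was the highest liver-labelled score of any member. The rest of the 35226 bp gene held no peak in either list.

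Tbp, the TATA-binding protein gene, held no peak in its body; 1 HEPA1-6 peak with a score of 18 lay 297 bp beyond its end. Gtf2b, the gene of TFIIB, held HEPA1-6 peaks with scores of 17 and 14, the first 2962 bp into the gene and the second beyond its end, and no liver-labelled peak. Gtf2e1 and Gtf2f2 of TFIIE and TFIIF, Gtf2h4 and Gtf2h5 of TFIIH, and Gtf2a1l, a germ cell paralog of Gtf2a1, held none. Within TFIIH, Gtf2h1 held 4 HEPA1-6 peaks and 1 liver-labelled peak, Gtf2h3 1 and 1, and Gtf2h2 3 and 0. Subunits of 1 complex thus differed in whether their genes held a peak.

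Of the TFII-I family on chromosome 5, a pair of genes carried many peaks each. Gtf2i encodes TFII-I, and Gtf2ird1 and Gtf2ird2 encode related proteins; the human counterparts lie in the region lost in Williams-Beuren syndrome. Gtf2ird1 held 15 HEPA1-6 and 12 liver-labelled peaks, the most of any member, and Gtf2i 12 and 7. Over all protein-coding genes, 8.11% held 5 or more HEPA1-6 peaks and 2.13% as many liver-labelled ones; among the members 11 and 3 did. At Gtf2ird1 the scores ranged from 15 to 39 in HEPA1-6 and from 12 to 30 among liver-labelled peaks, and at Gtf2i from 11 to 99 and from 13 to 47. HEPA1-6 peaks covered 56.6% of Gtf2ird1 with its flanks, and liver-labelled peaks 11.3%. At Gtf2i the highest HEPA1-6 score was 99, for a peak of 4850 bp (chr5:134300865-134305714) whose end nearer to the gene end coincided with that of a liver-labelled peak of 2403 bp with a score of 42. The highest liver-labelled score there, 47, belonged to a narrow peak of 321 bp. Each of the 19 liver-labelled peaks at these 2 genes overlapped a HEPA1-6 peak. Gtf2ird2 held 2 HEPA1-6 peaks and 1 liver-labelled peak.

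Among the TFIID genes, 11 of 17 were marked in HEPA1-6 (64.7%, 41.3 to 82.7%, background 42.0%). The other list marked 6 (35.3%, 17.3 to 58.7%, background 29.7%). Both backgrounds lie within these intervals. Taf9, whose product is shared by TFIID and SAGA, had the highest scores of this group: 110 for a HEPA1-6 peak of 4458 bp (chr13:100651859-100656316) and 86 for a liver-labelled peak of 2184 bp (chr13:100651422-100653605). Both peaks also overlapped Ak6. Taf10, also shared with SAGA, lay wholly inside a HEPA1-6 peak of 15961 bp (score 79), the widest at any member, and inside a liver-labelled peak of 8667 bp (score 45). Taf1, the largest subunit of TFIID, held 1 HEPA1-6 peak of 355 bp with a score of 19, about 20 kb into the gene, and no liver-labelled peak. Taf1 lies on the X chromosome, where the liver-labelled list held more peaks in all, 538 against 335.

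Taf2 was the only member with more peaks in the liver-labelled list among those with at least 5, with 9 against 8. It lies on chromosome 15, where that list also held more peaks in all, 2234 against 2072. Its strand is read from the peaks. In 3 places both lists gave the same interval: chr15:55019039-55020772, with scores of 28 in HEPA1-6 and 33 among liver-labelled peaks, chr15:55062893-55063763 (25 and 16) and chr15:55066121-55066718 (18 and 15). The highest liver-labelled score, 37, was at the gene start. Taf3, Taf12, Taf13 and the paralogs Taf4b, Taf7l and Taf7l2 held no peak. Of 7 TAF genes of other complexes, 6 (85.7%, 48.7 to 97.4%, background 42.0%) were marked in HEPA1-6, all but Taf1b. Of the 7, 4 (57.1%, 25.05 to 84.18%) were marked in both lists, and the background of 27.8% lies within that interval. Taf15 had the highest scores of these 7 genes, 115 and 53. Its peaks over the start were 2976 and 2524 bp wide and began at the same base upstream. The other 5 HEPA1-6 peaks of Taf15 scored 15 to 42, and liver-labelled peaks of 16 and 14 lay within a pair of them.

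Mediator without its kinase module accounted for 26 members, of which 21 (80.8%, 62.1 to 91.5%) were marked in HEPA1-6, against a background of 42.0%. A liver-labelled peak marked 12 (46.2%, 28.8 to 64.5%), and the background of 29.7% lies within that interval. The highest HEPA1-6 score of any member, 139, was at Med22, for a peak of 5192 bp (chr2:26908558-26913749) with a liver-labelled counterpart of 3653 bp scoring 62. Further HEPA1-6 peaks at the end of Med22 scored 51 and 28. Both peaks at the start also overlapped Rpl7a, a ribosomal protein gene next to Med22, and Surf1. Med1, the subunit through which nuclear receptors contact Mediator, had a HEPA1-6 peak of 4221 bp over its start (score 31) and a higher one of 2865 bp in its last part (score 75), with others scoring 38 and 18. The liver-labelled peaks scored 23 at the start and 31 in the last part, and a narrow one of 310 bp scored 38. At Med11, both lists gave the same interval of 3221 bp (scores 67 and 32) on the strand opposite to the gene, over its end and over Cxcl16. Med14, Med17, Med18 and Med31 held no peak; Med14 and Med17 encode the subunits that hold the complex together.

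The kinase module, which binds Mediator reversibly and blocks its contact with the polymerase, differed between the lists in count: 3 of its 4 genes were marked in HEPA1-6 and none in the other list. With 4 genes, a share of 0% has a Wilson interval that reaches 49.0%, so the background of 29.7% lies inside it. The interval of the HEPA1-6 share (75%, 30.1 to 95.4%) likewise holds the background of 42.0%. Med13l held 14 HEPA1-6 peaks, the second most of any member, spread over 205109 bp. Their scores ranged from 12 to 33, and most lay in the part nearer the gene end. Med12 held 2 peaks, with scores of 17 and 18, and Med13 held 2, with scores of 15 and 11. Of these 18 peaks, 16 scored below the list's median of 21.

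The remaining Mediator gene to set apart is Med30, the only member with a peak in the liver-labelled list alone. That peak was 606 bp wide (chr15:52718711-52719316), lay 6266 bp into the gene and scored 13, at percentile 6.27 of its list. It also lies on chromosome 15.

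Among the SUPT genes of elongation, Supt5 and Supt4a encode the 2 subunits of DSIF, which halts and then accompanies the polymerase, Supt6 a histone chaperone, and Supt16 a subunit of FACT. Supt5 held 6 HEPA1-6 peaks, with scores of 13 to 45, the highest at its start and a wide one of 6576 bp over its end (43). Of the liver-labelled peaks of Supt5, one lay over the end (21) and the other further upstream in the gene (19), both inside that wide peak but assigned to the opposite strand. Supt6 held 8 HEPA1-6 peaks, scoring 12 to 40, along its whole length. Those over its start (40) and its end (37) lay on the opposite strand and also over Sdf2 and Proca1. Of its 3 liver-labelled peaks, the one with a score of 46 lay upstream of the start, over Sdf2 and on the opposite strand. Another lay just inside the start on the strand of Supt6 (17), and the last lay at the end on the opposite strand (27). Supt16 held 4 HEPA1-6 peaks with scores of 14 to 28 and no liver-labelled peak. Supt4a held 1 in each list (39 and 23), and Supt4b, a short gene of 710 bp, none. Of the SAGA genes, Supt3 held the same interval of 1011 bp over its start in both lists (36 and 22), on the strand opposite to Supt3 and also over Runx2, and Supt20 1 peak in each (48 and 28), while Supt7l held none.

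**Figure D3:**
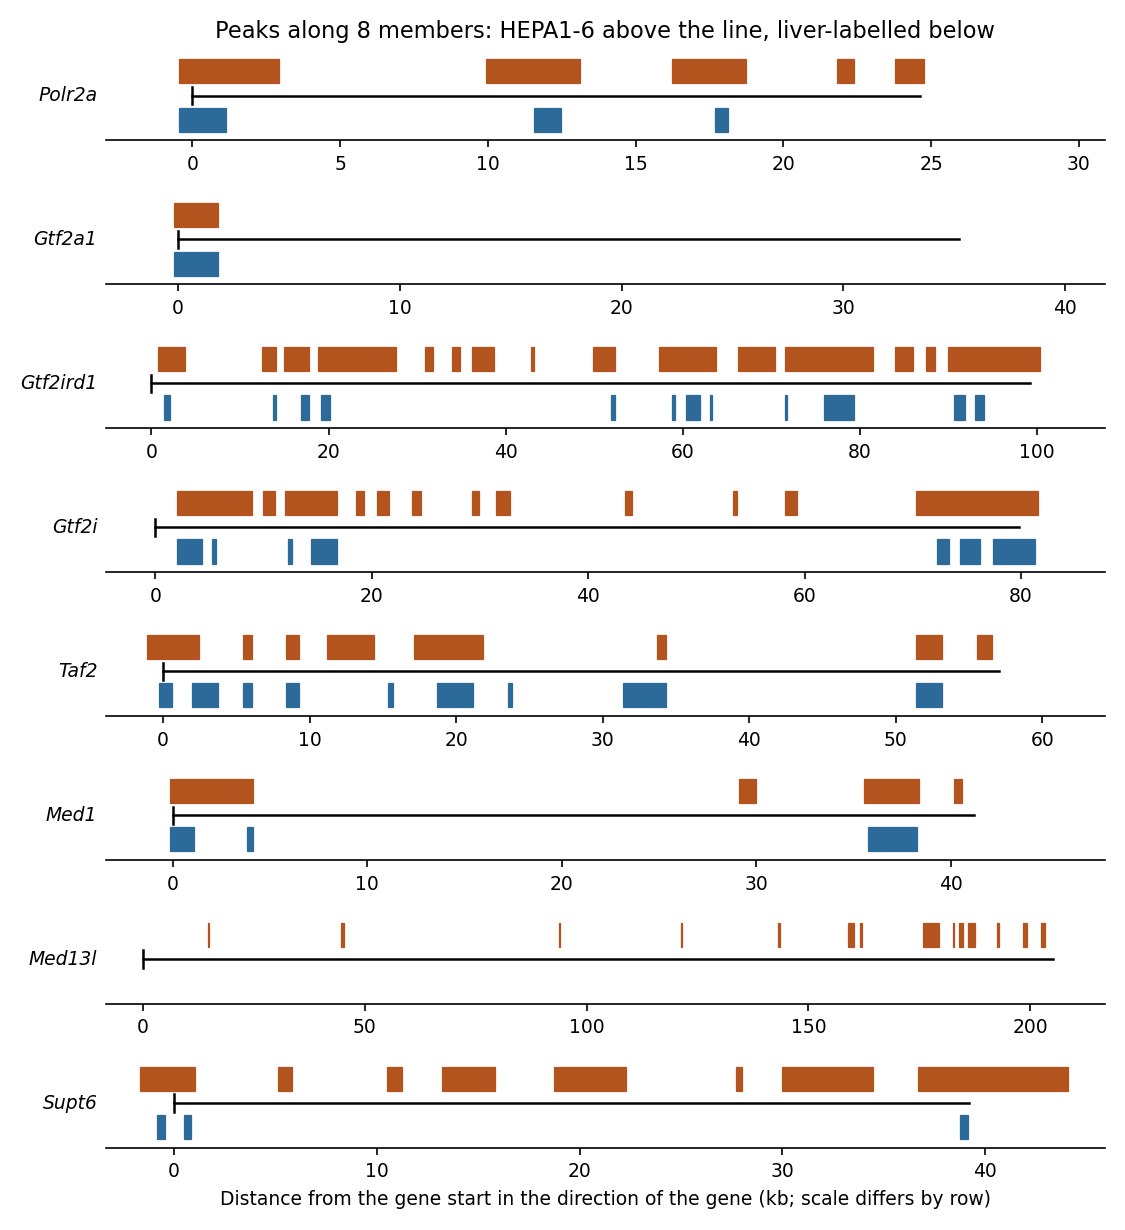
Peaks along 8 members, with distance from the gene start in kb on the x axis (the scale differs by row), the gene as a black line with a tick at its start, HEPA1-6 peaks above (orange) and liver-labelled peaks below (blue). Gtf2a1 has 1 identical peak at its start in both lists, Gtf2ird1 has 15 and 12 peaks along its length, and Med13l has 14 HEPA1-6 peaks and no liver-labelled one.

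Members with a peak in HEPA1-6 alone had lower HEPA1-6 scores than those with a peak in both lists. The highest score per gene had a median of 18 (range 12 to 37) over the 29 former and of 39 (16 to 139) over the 40 latter. The ranges overlap between 16 and 37. The same medians over all protein-coding genes were 21 and 45. Of 51 members whose highest HEPA1-6 score was at least 20, 39 (76.5%, 63.2 to 86.0%) also held a liver-labelled peak, against 75.8% of all such genes; of 18 members below 20, 1 did (5.56%, 0.988 to 25.8%), against 21.0%. All 18 members with a score of at least 40 held a liver-labelled peak, against 93.4% of all such genes. Over all scores, 58.0% of the members with a HEPA1-6 peak (46.2 to 68.9%) held a liver-labelled one, against a background of 66.1%, which lies inside the interval.

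**Figure D4:**
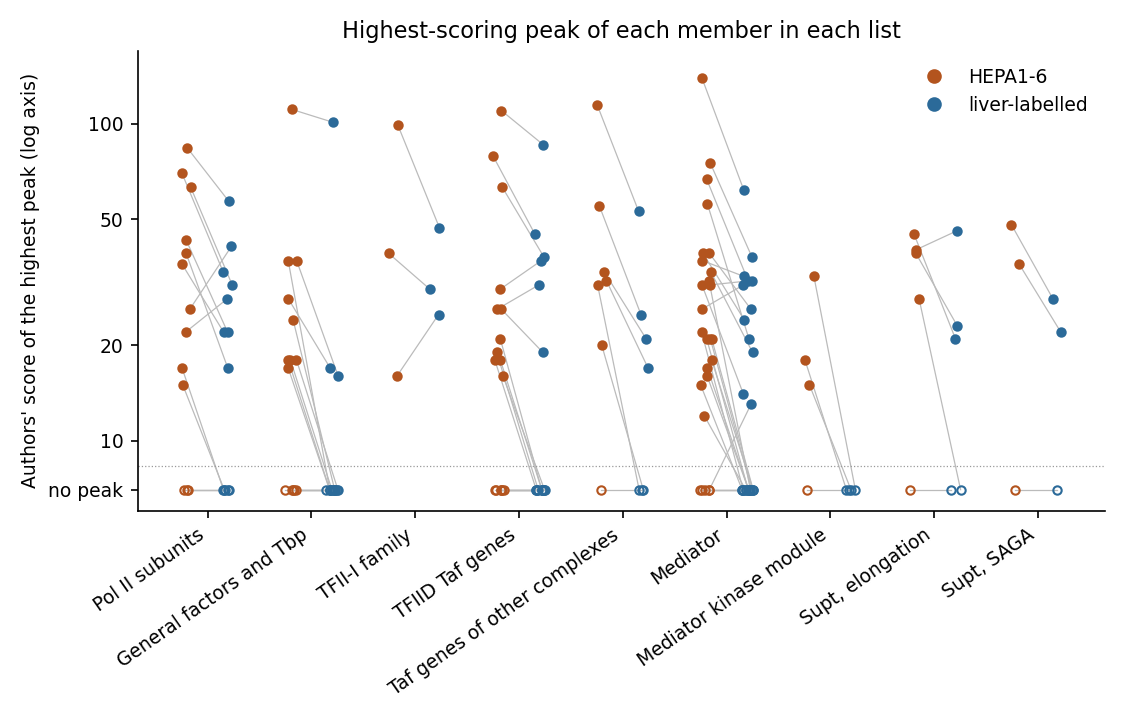
The authors' score of the highest-scoring peak (y axis, log scale) of each member in HEPA1-6 (orange) and the liver-labelled list (blue), by role (x axis); open circles on the lowest line mark members with no peak, and grey lines join the values of 1 member. Scores rank peaks within a list and are not compared between lists; the 29 members with a HEPA1-6 peak only have scores of 12 to 37.

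In height the members did not stand above other genes with a peak, and in HEPA1-6 they lay somewhat lower. The highest HEPA1-6 score per gene had a median of 31 (quartiles 19 and 40) over the 69 members with a peak. Over all 9191 such genes the median was 34 (quartiles 23 and 55). The highest liver-labelled score had medians of 28 and 28. These differences were not tested. Members held a median of 2 HEPA1-6 peaks (30 held 1) and of 1 liver-labelled peak (27 held 1), the same medians as all genes with a peak. The 201 HEPA1-6 peaks had a median score of 20 and a median width of 1108 bp, and the 82 liver-labelled peaks 22 and 1167 bp. Whole-list medians were 21 and 1091 bp, and 22 and 881 bp.

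Individual peaks at members were matched between the lists. A HEPA1-6 peak overlapped 76 of the 82 liver-labelled ones (92.7%, 84.9 to 96.6%), against 75.9% in the whole liver-labelled list. Of the 201 HEPA1-6 peaks at members, 60 (29.9%, 24.0 to 36.5%) had a liver-labelled partner, against 31.8% in the whole list. The whole lists, unlike the member peaks, are not limited to peaks at genes, so these shares do not show whether members differ from other genes. Overlap among the peaks at all protein-coding genes was not counted. Counted by gene instead, 40 of the 41 members in the liver-labelled list were marked in HEPA1-6 too, against a background of 93.6%. Of the 76 overlapping liver-labelled peaks, 70 (92.1%) lay wholly inside the HEPA1-6 peak, against 87.2% in the whole list, and 29 (38.2%) had an edge on the same base, against 46.6%. With an overlap of at least 50% of both peaks, the shares fell to 23.2% and 9.45%. A peak that contains another is at least as wide by definition. Over all peaks at members, the median width was 1108 bp in HEPA1-6 and 1167 bp in the liver-labelled list.

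Strand was examined next. How the authors gave a strand to a peak is not stated. Members whose strand is in the RefSeq promoter table were used, so that the strand does not come from the peaks. Where a peak overlapped no other gene, it had the strand of the member in 125 of 142 cases in HEPA1-6 (88.0%, against 93.7% over all such genes) and in 43 of 52 liver-labelled cases (82.7%, against 91.6%). Where it also overlapped another gene, this was so in 18 of 34 (52.9%, against 65.4%) and 6 of 16 (37.5%, against 63.4%). Med26, for one, held HEPA1-6 peaks on the opposite strand near its end and on its own strand further upstream.

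The position of the peaks within members was read from the gene strand, which was known for 86 of them (80 from the RefSeq promoter table and 6 from the peaks). A gene absent from that table had a strand only if it held peaks. Such genes without a peak are therefore missing from the shares and backgrounds below, which raises both. A HEPA1-6 peak lay within 1 kb of the gene start in 32 members (37.2%, background 26.9%) and within 1 kb of the gene end in 45 (52.3%, background 25.7%). A liver-labelled peak lay at the start in 22 (25.6%, background 18.2%) and at the end in 14 (16.3%, background 12.7%). With strands from the promoter table only, 28 of 80 members had a HEPA1-6 peak at the start, against 4285 of 17492 protein-coding genes. At the end 40 of the 80 had one, and liver-labelled peaks lay at 20 starts and 14 ends. The background of these last counts was not taken. Both lists marked the start of 20 of the 86 members, against a background of 16.6%, among them Polr2a, Gtf2a1, Taf2, Taf9, Taf10, Taf15, Med1 and Supt6. Among the 67 members with a strand and a HEPA1-6 peak, 47.8% (36.3 to 59.5%) had a peak at the start and 67.2% (55.3 to 77.2%) at the end; over all such genes the shares were 57.9% and 55.5%. Among the 40 with a liver-labelled peak, 55.0% (39.8 to 69.3%) and 35% (22.1 to 50.5%) did, against 55.6% and 38.9%. All 4 background shares lie within these intervals. In short genes the windows at the start and the end overlap, and 22 members (32.8% of the 67) had a HEPA1-6 peak at both, near the 33.4% of all such genes.

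The limit of 1 kb decided some cases. Polr2h, Tbp, Med19 and Taf9b held a HEPA1-6 peak in the flank only, 264 to 921 bp from the gene with scores of 15 to 32, and Med7 and Polr2i a liver-labelled one, at 210 and 920 bp. Just outside, 6 members without a HEPA1-6 peak had one within 5 kb, at 1105 to 4299 bp with scores of 17 to 34: Polr2g, Med14, Gtf2f2, Med31, Polr2d and Taf12. Likewise 6 without a liver-labelled peak had one at 2020 to 4239 bp, with scores of 12 to 97: Polr2h, Med25, Supt4b, Polr2g, Med31 and Tbp. With a flank of 5 kb, 75 members held a HEPA1-6 peak (background 46.3%) and 47 a liver-labelled one (background 33.6%). No peak was then held by 15 (background 51.5%).

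Other genes that work with the polymerase, from a list that does not overlap the rule, were also examined, without a test against the members. Of 41 such genes, 36 (87.8%, 74.5 to 94.7%) were marked in HEPA1-6, against 42.0% of all protein-coding genes. In the other list 33 (80.5%, 66.0 to 89.8%) were marked, against 29.7%. They are also longer, with a median of 33919 bp. Of the 10 genes of pause release, 9 held a peak in both lists; Hexim1, which holds P-TEFb inactive, scored 115 and 59. Of 15 elongation genes, 14 and 13 did, Cdk12 with scores of 149 and 41. Of the 5 TFIIH kinase and helicase genes, 4 and 2 did, with Ccnh the exception in HEPA1-6. Of the 8 genes of termination and of the C-terminal domain, 6 held a peak in both lists, while Rpap2 and Ssu72 held none. The Mediator kinases Cdk8 and Cdk19 and their cyclin gene Ccnc held peaks in both lists, whereas Med12, Med13 and Med13l held them in HEPA1-6 only, and Cdk8 reached scores of 2048 and 1853. Of 25 genes of RNA polymerases I and III and their factors, 23 (92.0%, background 42.0%) were marked in HEPA1-6 and 15 (60.0%, background 29.7%) in the other list.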

How the data were processed

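S9.6 immunoprecipitation and sequencing were carried out on HEPA1-6 cells and mouse liver. Per the labels' protocols, DNA was sonicated to fragments of about 300 bp and sequenced as paired reads of 75 bp. The authors deposited 1 peak list per source, each with positions, a strand and a whole-number score per peak of 10 or more; the scale of the deposited score is not stated. Per the submitters' processing notes, the build was mm10 (GRCm38) and the tools named were CASAVA 1.8.2, cutadapt, Bowtie2, bedtools, SAMtools and MACS2, with no role or threshold. Per the deposited peak names, merged immunoprecipitates were compared with input; the libraries that were merged are not given in the sources used here. Depth is therefore unknown. The chromosome, start and end that the authors deposited were converted to 1-based positions.

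Peaks were laid over the bodies, with 1 kb on both sides, of 21887 protein-coding genes on chromosomes 1 to 19, X and Y of a RefSeq table (GRCm38.p6), with an overlap of 1 base sufficing (Python 3.11.15, pandas 2.3.3, SciPy 1.17.1). The overlap code was tested on simulated data with planted peaks. Strands came from the RefSeq promoter table, otherwise from most of the peaks lying on that gene alone. Members, gene lists and the rules for naming genes were chosen with earlier results of these data known. The members described in more detail are 10 chosen for their role, the 5 with the highest score and the 5 with most bases covered in each list, those with the same interval in both lists, and the 1 with a liver-labelled peak only; others are named within their role. No test was run, since each source has 1 pooled list. Alternatives were the flank, the part of each list used, peaks of 1 gene only, a narrower membership, chromosomes 15 and X, the windows at gene starts and ends, and the overlap.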

Additional observations from a re-analysis of the deposited data

How the results depend on the processing

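Of 54 alternatives for 12 results, 43 left the value in place (a count within 1.5 times, or a share within its interval) and 11 moved it. By the limit of 1.5 times, the counts with a HEPA1-6 peak and with a liver-labelled peak were moved by none. They still fell, to 50 (54.3%, background 33.5%) in HEPA1-6 with the higher-scoring 50% of each list. The liver-labelled count fell to 28 (30.4%, background 21.9%) with peaks that overlap no other gene. Both shares lie below the main intervals, which start at 65.3% and 34.8%. The higher-scoring 50% of each list left 41 members without a peak (44.6%, background 65.1%). A HEPA1-6 list as long as the liver-labelled one gave 40 without a peak, 11 with a peak in HEPA1-6 only and 2 in the liver-labelled list only, as it has fewer peaks by construction. Peaks that overlap no other gene gave 38 without a peak (background 64.2%). They gave 24 with a peak in both lists (background 17.9%) and 4 in the liver-labelled list only (background 3.92%). The last count was 2 with a flank of 5 kb (background 2.19%) and 0 without chromosomes 15 and X (background 1.73%). Requiring an overlap of at least 50% of both peaks left 9.45% of the HEPA1-6 peaks matched, and 23.2% of those liver-labelled. Gene strands from the RefSeq promoter table only, an alternative chosen after seeing the data, moved no count of peaks at gene starts or ends beyond 1.5 times. No paired analysis was possible because the data are 1 pooled list per source; leaving out replicates was not possible for the same reason. The unknown depth limits each statement that a gene held no peak.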

Other observations

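Some members held a peak on the strand opposite to their own that reached over a neighbouring gene. At Supt20, the peak in both lists (scores 48 and 28) overlapped the gene end and Exosc8, a gene of the RNA exosome, on the opposite strand. At Taf6, a HEPA1-6 peak of 7910 bp (score 63) covered the gene end and reached Ap4m1. Of the 2 liver-labelled peaks inside it, the one with a score of 38 also reached Ap4m1 and the one with a score of 16 did not. At Polr2j, a HEPA1-6 peak of 9305 bp (36) and a liver-labelled one of 4792 bp (22) overlapped Lrwd1. At Med29, 1 of the 3 liver-labelled peaks (score 21) lay upstream of the start over Paf1, the gene of an elongation factor, and did not overlap a HEPA1-6 peak.

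In the 50 bases after the start, G exceeded C in 54 of 80 member promoters (67.5%), against 58.3% of all protein-coding genes. Among members with a HEPA1-6 peak at the start this was so in 14 of 28, and among those without in 40 of 52 (76.9%). Over all protein-coding genes the shares were 62.5% and 56.9%, in the opposite order. These values were not tested.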
